A study of Mus musculus with 12 samples.

Results

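The JAK, STAT and SOCS genes described here are 10 genes of cytokine receptor signalling, chosen by name among the 21834 genes of the count table: the kinases Jak1 and Jak2, the transcription factors Stat3, Stat5a, Stat5b and Stat6, and the feedback inhibitors Socs1, Socs2, Socs3 and Cish. They were measured by RNA-seq in BV2 cells, an immortalised mouse microglial line, which had been transduced with lentivirus so as to express stably a control shRNA (line shCtrl) or one that targets Anxa2 (line shAnxa2). Both puromycin-selected lines were sequenced untreated (CTRL) and after oxygen-glucose deprivation and reoxygenation (OGD/R, group names ending in OGDR), which per the labels was 4 h in glucose-free medium at 1% O2 followed by 12 h of reoxygenation in normal medium, whereas the study's methods give a longer reoxygenation for BV2 cells. The groups shCtrl-CTRL, shCtrl-OGDR, shAnxa2-CTRL and shAnxa2-OGDR held 3 libraries each, 12 in all. Every group therefore carried an shRNA, and each shRNA was represented by 1 line, so that the shRNA and any other property of that line cannot be told apart.

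Cytokine receptors of this class have no kinase activity of their own. Ligand binding brings receptor-bound Janus kinases (JAKs) together, and these phosphorylate the receptor and the STAT proteins docked on it. Phosphorylated STATs pair, enter the nucleus and bind DNA at palindromic sites built from TTC and GAA. Among the genes they switch on are the suppressors of cytokine signalling (SOCS1 to SOCS7 and CIS, the product of Cish), which bind JAKs or receptors and shut the pathway off. In microglia, STAT3 is known for the response to the IL-6 and IL-10 families, STAT5 for that to GM-CSF and related cytokines, and STAT6 for that to IL-4 and IL-13. The activity of JAKs and STATs depends on phosphorylation, which RNA levels do not measure.

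Because STAT sites in the promoter are a textbook feature of the feedback inhibitors, the start regions of the members were searched for the motif TTCNNNGAA, its stricter form TTCCNGGAA and the form with 4 bases between TTC and GAA. Each motif is its own reverse complement, so that 1 search covers both strands, and every match of the stricter form is also a match of the first. RefSeq promoter windows of 300 bases, from 250 bases before to 50 bases after an annotated start (build GRCm38.p6), were at hand for 9 members in 11 windows, and for Socs2 none was used here. The first motif was found in the windows of 2 members, Cish with 2 matches and Socs3 with 1. Among all 32851 windows, 8.3% held at least 1 match and 0.457% at least 2. The strict form was found in the Cish window and in 1.15% of all windows. The form with 4 bases in the middle, found in 6.95% of all windows, was in none of the 11. The matching stretches are shown 5′ to 3′ with the first motif in capitals: for Cish chr9:107296409-107296688 on the plus strand, which ends with the first 30 bases of the annotated transcript, and for Socs3 the 250 bases before the start, chr11:117969367-117969616 on the minus strand.
Cish: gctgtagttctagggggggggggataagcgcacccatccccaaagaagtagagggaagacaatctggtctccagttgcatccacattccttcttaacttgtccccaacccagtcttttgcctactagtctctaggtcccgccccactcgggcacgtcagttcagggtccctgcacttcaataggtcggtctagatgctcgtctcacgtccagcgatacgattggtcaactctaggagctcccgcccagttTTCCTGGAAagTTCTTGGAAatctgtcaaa
Socs3: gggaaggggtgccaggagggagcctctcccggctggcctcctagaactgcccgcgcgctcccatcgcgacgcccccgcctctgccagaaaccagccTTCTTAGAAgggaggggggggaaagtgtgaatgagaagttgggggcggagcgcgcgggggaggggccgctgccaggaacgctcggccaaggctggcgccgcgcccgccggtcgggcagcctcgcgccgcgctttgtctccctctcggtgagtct
In Cish the match to the strict form, TTCCTGGAA, began at the annotated start itself, and TTCTTGGAA began 11 bases further on. In Socs3 the match TTCTTAGAA began 154 bases before the start. A match describes these letters and not a bound factor.

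Total counts per library ranged from 19521877 to 27288843. Anxa2 itself stood at 164.5 to 176.7 CPM (counts scaled to the size of each library by the TMM method) in shCtrl-CTRL, 250.9 to 294.6 in shCtrl-OGDR, 34.96 to 44.37 in shAnxa2-CTRL and 18.22 to 20.62 in shAnxa2-OGDR, so that the Anxa2 level of every library matched the line in its name. A list of 16 microglial markers summed to 2336 to 2901 CPM per library, with only Sall1 at 0 throughout, whereas 8 astrocyte markers summed to at most 1.164 CPM (Aqp4 and Sox9 at 0) and 9 neuronal markers to at most 1.48 CPM. Levels within the microglial list differed widely. Csf1r had group means of 398.2 to 584.3 CPM, whereas those of Tmem119 were 1.866 to 10.27 and those of P2ry12 1.73 to 2.528 CPM. Siglech reached at most 0.194 CPM in a library and failed the filter on low counts. The 8 oligodendrocyte markers summed to 29.44 to 36.98 CPM with Mog and Olig1 at 0. The samples were grouped by their names, since another label gives the cell type by treatment rather than by shRNA. For treatment no such check was made as Anxa2 gives for the line. With OGD/R, the Anxa2 level was 1.62-fold higher in shCtrl cells and 2.06-fold lower in shAnxa2 cells. Across all genes, shCtrl-CTRL lay nearest to shAnxa2-OGDR (mean root-mean-square distance of 0.416 on the log2 scale) and shCtrl-OGDR nearest to shAnxa2-CTRL (0.453), whereas libraries of 1 group lay 0.252 to 0.28 apart. A list of 20 hypoxia targets summed to 4551 to 4920 CPM in shCtrl-CTRL and 5945 to 6604 in shCtrl-OGDR, but to 6221 to 6484 in shAnxa2-CTRL and 4373 to 4416 in shAnxa2-OGDR. Most of that sum came from Ldha (group means of 1811 to 2524 CPM) and Pgk1 (1213 to 1858 CPM). By gene, 18 were tested. In shCtrl cells 13 were higher and 2 lower with OGD/R, against 32.4% and 31.0% of all genes. In shAnxa2 cells 1 was higher and 13 lower, against 28.2% and 26.8%. Of the 5239 genes called with OGD/R in both lines, 5165 moved in opposite directions, and each result below rests on the labels as they stand. Whether any treatment label was exchanged was not tested.

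All 10 members passed the filter on low counts (0.5 CPM or more in 3 or more libraries), and their levels differed widely. Per length, as TPM (counts divided by length and scaled to a fixed sum per library) from exon lengths of GENCODE vM21, Stat6 was the highest member in all 4 groups, with group means of 203.2 to 214.0 TPM, and Jak1 came next with 144.9 to 192.8 TPM. Stat3 stood at 51.52 to 62.78 TPM and Stat5b at 36.81 to 63.04 TPM. Jak2, Stat5a and Socs3 lay between 19.25 and 40.74 TPM. Socs2 reached at most 4.313 TPM, and Cish and Socs1 were lowest, with at most 2.06 and 1.207 TPM. The feedback inhibitors apart from Socs3 were thus present at levels far below the kinases and STATs, and the counts of Cish (19 to 86 per library) and Socs1 (6 to 28) limit the precision for these 2 genes.

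**Figure D1:**
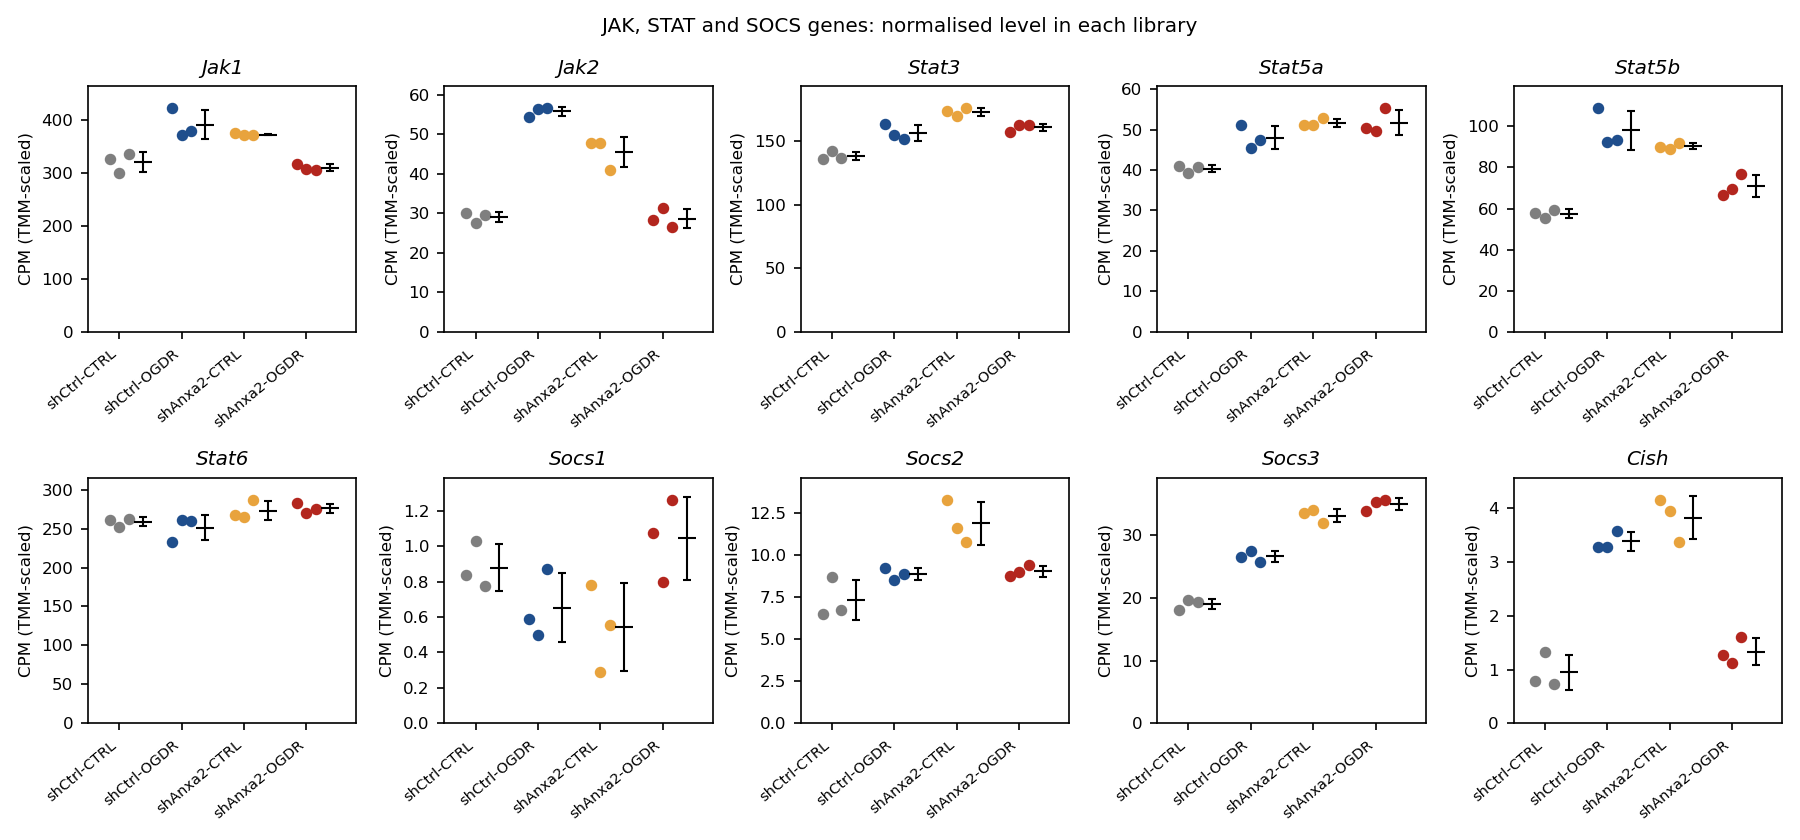
Level of each member in CPM (TMM-scaled, linear axis from 0) in the 12 libraries, with coloured points for the 3 libraries of a group and black bars for mean ± SD. Cish and Jak2 are high in shCtrl-OGDR and shAnxa2-CTRL and low in the other groups, Socs3 is lowest in shCtrl-CTRL, and Stat6 stays between 232.9 and 286.9 CPM in every library.

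Jak2, the kinase of the GM-CSF, IL-3 and IFN-γ receptors among others, had larger differences than Jak1, the other kinase among the members. It stood at 30.0, 27.63 and 29.63 CPM in shCtrl-CTRL and at 54.53, 56.34 and 56.61 CPM in shCtrl-OGDR. In shAnxa2-CTRL it stood at 47.78, 47.88 and 41.11 CPM and in shAnxa2-OGDR at 28.27, 31.32 and 26.44 CPM. The groups shCtrl-OGDR and shAnxa2-CTRL were high without overlapping each other, and the ranges of the other groups overlapped below them. With OGD/R, Jak2 was 1.92-fold higher in shCtrl cells (log2 difference 0.94 ± 0.07 SE, adjusted p = 3.32e-11, edgeR quasi-likelihood test with Benjamini-Hochberg adjustment, as throughout) and 1.58-fold lower in shAnxa2 cells (adjusted p = 5.2e-08). Between the lines it was 1.57-fold higher in untreated shAnxa2 cells (adjusted p = 4.05e-08) and 1.94-fold lower after OGD/R (adjusted p = 2.24e-11).

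Jak1, which serves the gp130, γ-chain and interferon receptors, followed the same order at a smaller size. It ranged over 300.5 to 336.9 CPM in shCtrl-CTRL, 372.2 to 422.3 in shCtrl-OGDR, 371.5 to 374.9 in shAnxa2-CTRL and 306.5 to 317.4 in shAnxa2-OGDR. The last of these overlapped shCtrl-CTRL, and the middle 2 overlapped each other. OGD/R went with a 1.22-fold higher level in shCtrl cells (adjusted p = 5.01e-05) and a 1.2-fold lower level in shAnxa2 cells (adjusted p = 0.000169). The deposited gene models of Jak1 and Raver2 share 4 bases, and Raver2 had at most 12 counts in a library.

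Stat5b and Stat5a encode near-identical factors from neighbouring genes on chromosome 11 (chr11:100671557-100741550 and chr11:100750177-100775995 in the deposited mm39 coordinates), so that the counting may have divided some reads between them. Stat5b stood at 57.82, 55.37 and 59.4 CPM in shCtrl-CTRL and at 108.8, 92.19 and 93.14 CPM in shCtrl-OGDR. The levels in shAnxa2-CTRL were 89.88, 88.98 and 91.88 CPM, and those in shAnxa2-OGDR 66.54, 69.39 and 76.69 CPM. No 2 of the 4 groups overlapped. It was 1.71-fold higher with OGD/R in shCtrl cells (log2 difference 0.77 ± 0.06 SE, adjusted p = 1.34e-10) and 1.27-fold lower in shAnxa2 cells (adjusted p = 4.89e-05).

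Stat5a moved less. It ranged over 39.32 to 41.02 CPM in shCtrl-CTRL and lay above that range in all 9 libraries of the other groups, at 45.46 to 55.25 CPM. OGD/R went with a 1.19-fold higher level in shCtrl cells (adjusted p = 0.000934), while in shAnxa2 cells the group means were 51.7 CPM in both conditions (log2 difference 0.00 ± 0.06 SE, adjusted p = 0.99). The ratio of Stat5b to Stat5a counts was 1.408 to 1.46 in shCtrl-CTRL and 1.968 to 2.131 in shCtrl-OGDR. It was 1.739 to 1.757 in shAnxa2-CTRL and 1.323 to 1.4 in shAnxa2-OGDR. Stat5b counts thus exceeded those of Stat5a in every library, and did so by more in shCtrl-OGDR and shAnxa2-CTRL.

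Stat3, the STAT of the IL-6 and IL-10 families, ranged over 136.3 to 142.1 CPM in shCtrl-CTRL and 151.5 to 164.0 in shCtrl-OGDR. It ranged over 170.1 to 176.0 CPM in shAnxa2-CTRL and 157.7 to 163.0 in shAnxa2-OGDR. The OGDR groups of the lines overlapped, with shCtrl-CTRL below and shAnxa2-CTRL above them. It was 1.13-fold higher with OGD/R in shCtrl cells (adjusted p = 0.00136) and 1.25-fold higher in untreated shAnxa2 than shCtrl cells (adjusted p = 1.43e-06). In shAnxa2 cells the difference with OGD/R was -0.11 ± 0.05 SE on the log2 scale (adjusted p = 0.0511), and its adjusted p was below 0.05 with DESeq2 (0.0307), with median-of-ratios size factors (0.0392) and with voom (0.0471). Stat3 and Stat5a lie on opposite strands and share 72 bases in the deposited coordinates. Whether the counting used strand is not given in the sources used here, so reads from those bases may count for either.

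Stat6, the STAT of IL-4 and IL-13, varied least of the 10. Its range over all 12 libraries was 232.9 to 286.9 CPM, and neither difference with OGD/R passed the test (-0.04 ± 0.05 SE, adjusted p = 0.475, in shCtrl and 0.02 ± 0.05 SE, adjusted p = 0.816, in shAnxa2 cells on the log2 scale). After OGD/R it was 1.1-fold higher in shAnxa2 than shCtrl cells (adjusted p = 0.0218). That call was lost without shCtrl-OGDR replicate 1 (adjusted p = 0.156) and without shAnxa2-OGDR replicate 1 (adjusted p = 0.0654). Stat6 shares 40 bases with Nab2 on the other strand.

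Cish, which encodes CIS, an inhibitor of STAT5 docking and a classical STAT5 target, had the largest differences among the members. It stood at 0.7938, 1.319 and 0.7352 CPM in shCtrl-CTRL and at 3.286, 3.283 and 3.586 CPM in shCtrl-OGDR. In shAnxa2-CTRL it stood at 4.157, 3.946 and 3.376 CPM, and in shAnxa2-OGDR at 1.276, 1.113 and 1.601 CPM. The 6 libraries of shCtrl-OGDR and shAnxa2-CTRL overlapped each other and lay above all of the other 6, which overlapped among themselves. With OGD/R, Cish was 3.52-fold higher in shCtrl cells (log2 difference 1.82 ± 0.22 SE, adjusted p = 1.76e-07) and 2.88-fold lower in shAnxa2 cells (-1.53 ± 0.22 SE, adjusted p = 2.6e-06). It was 3.97-fold higher in untreated shAnxa2 than shCtrl cells (adjusted p = 4.94e-08) and 2.55-fold lower after OGD/R (adjusted p = 8.13e-06). In mm39 the gene lies at chr9:107173225-107179983, and its start region is the one shown above with 2 STAT motifs.

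Socs3, the inhibitor of gp130 receptors and JAKs and a classical STAT3 target, followed another order. It stood at 18.05, 19.61 and 19.26 CPM in shCtrl-CTRL and at 26.48, 27.52 and 25.77 CPM in shCtrl-OGDR. The values in shAnxa2-CTRL were 33.45, 33.93 and 31.94 CPM and those in shAnxa2-OGDR 33.83, 35.29 and 35.61 CPM. All 6 shAnxa2 libraries lay above all 6 shCtrl libraries. Socs3 was 1.4-fold higher with OGD/R in shCtrl cells (adjusted p = 1.09e-06), and in shAnxa2 cells the difference was 0.08 ± 0.06 SE on the log2 scale (adjusted p = 0.321). In shAnxa2 cells it was higher than in shCtrl cells both without OGD/R (1.74-fold, adjusted p = 4.21e-10) and after it (1.31-fold, adjusted p = 1.19e-05).

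Socs2, an inhibitor of growth hormone and related signals through STAT5, stood at 6.517, 8.686 and 6.764 CPM in shCtrl-CTRL and at 9.231, 8.551 and 8.863 CPM in shCtrl-OGDR. It stood at 13.3, 11.6 and 10.8 CPM in shAnxa2-CTRL and at 8.777, 8.982 and 9.411 CPM in shAnxa2-OGDR. The group shAnxa2-CTRL lay above all the others, shCtrl-CTRL and shAnxa2-OGDR did not overlap, and shCtrl-OGDR overlapped both of these. It was 1.62-fold higher in untreated shAnxa2 than shCtrl cells (adjusted p = 1.75e-05) and 1.31-fold lower with OGD/R in shAnxa2 cells (adjusted p = 0.00639). The 1.21-fold higher level with OGD/R in shCtrl cells only just passed the test (adjusted p = 0.0477), and the 2 groups overlapped. That call was lost with DESeq2 (adjusted p = 0.0606), with median-of-ratios size factors (0.0519) and without the filter (0.0553). It was also lost with only the 2 groups compared (0.0577) and with the replicate number as a block (0.056). Leaving out shCtrl-CTRL replicate 1 (adjusted p = 0.192) or replicate 3 (0.172), or any 1 shCtrl-OGDR library, lost it as well. So did leaving out shAnxa2-CTRL replicate 2 or any 1 shAnxa2-OGDR library.

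Socs1, a direct inhibitor of JAK kinases and a target of interferon signalling, stood at 0.8355, 1.026 and 0.772 CPM in shCtrl-CTRL and at 0.5867, 0.4963 and 0.871 CPM in shCtrl-OGDR. It stood at 0.7824, 0.2888 and 0.5561 CPM in shAnxa2-CTRL and at 1.072, 0.7948 and 1.261 CPM in shAnxa2-OGDR. The levels rest on 6 to 28 counts, and every pair of groups overlapped except shAnxa2-CTRL and shAnxa2-OGDR. With OGD/R it was 1.89-fold higher in shAnxa2 cells (log2 difference 0.92 ± 0.37 SE, adjusted p = 0.0368). The call was lost without shAnxa2-CTRL replicate 2 (adjusted p = 0.171) or replicate 3 (adjusted p = 0.0732). Leaving out shAnxa2-OGDR replicate 1 (adjusted p = 0.0773) or replicate 3 (adjusted p = 0.13) lost it too. The same held with DESeq2 (adjusted p = 0.0516), without the filter (0.0646) and with only the 2 groups compared (0.0527). In shCtrl cells the difference with OGD/R was -0.47 ± 0.35 SE (adjusted p = 0.251).

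**Figure D2:**
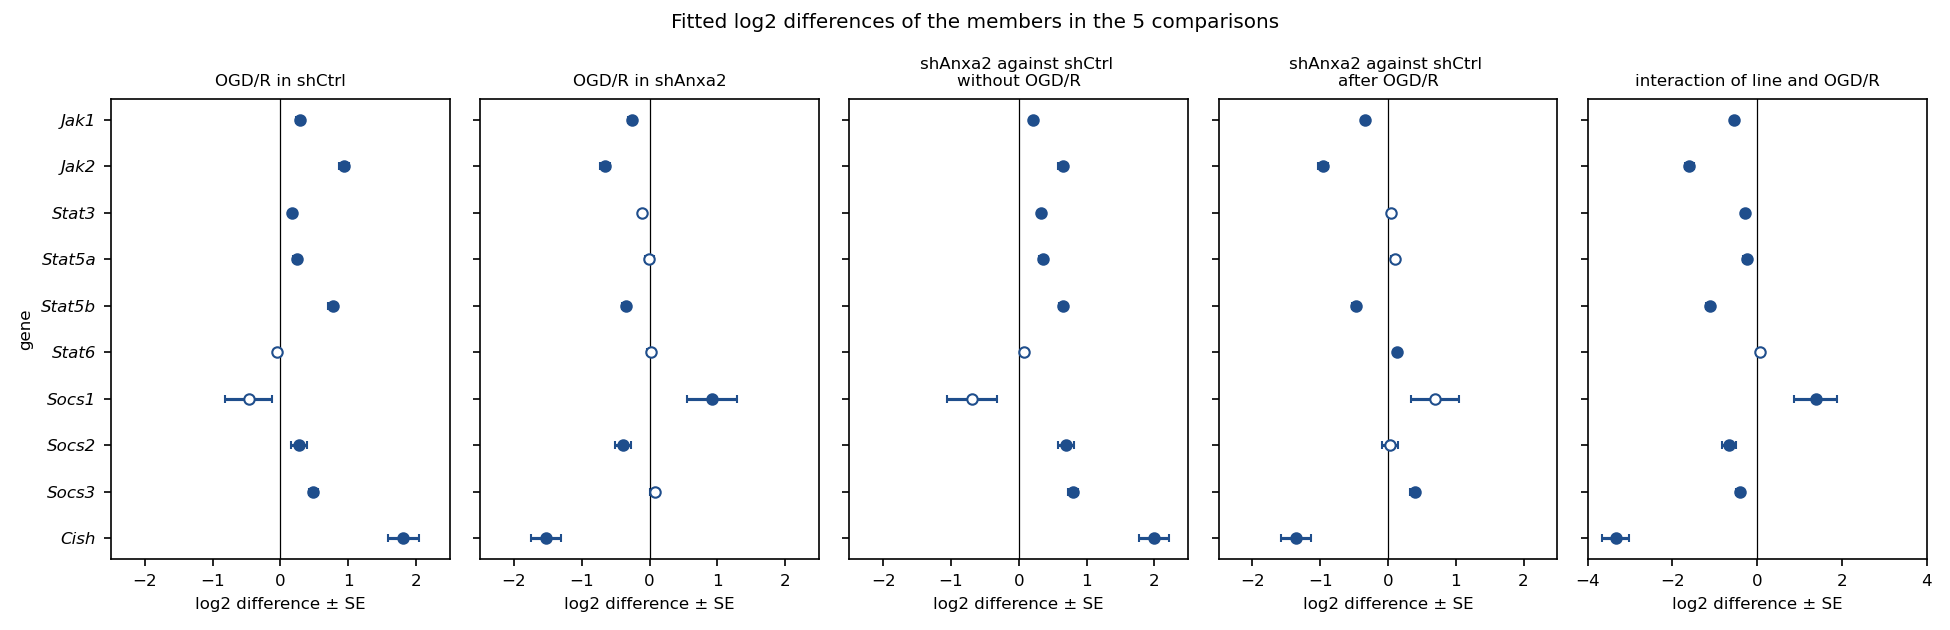
Fitted log2 differences (points) with their SE (bars) for the 10 members in the 5 comparisons, on linear axes. Filled points have an adjusted p below 0.05 and open points do not. Cish lies at 1.82 for OGD/R in shCtrl and -1.53 in shAnxa2 cells, and Stat6 lies near 0 in the first 3 panels.

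Counted together, 8 of the 10 members were higher with OGD/R in shCtrl cells and none lower, with a median log2 difference of 0.28. The Socs2 call among these was lost under the alternatives given above. Stat6 and Socs1 did not pass. Among all 11626 genes tested, 32.4% were higher and 31.0% lower, with a median of 0.005. In shAnxa2 cells 5 members were lower (Jak1, Jak2, Stat5b, Socs2 and Cish), 1 was higher (Socs1) and 4 did not pass, with a median of -0.19, against 26.8% of all genes lower and 28.2% higher. With the further requirement of a log2 difference of at least 1 in size, Cish remained in each comparison, alone of the members, against 6.73% of all genes in shCtrl and 3.54% in shAnxa2 cells. Of the 5 members that passed in both lines, all 5 moved in opposite directions. That was also so for 98.6% of all genes that passed in both, so the opposite sign is not particular to the members.

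Between the untreated lines, 8 members were higher in shAnxa2 cells and none lower, with a median of 0.5, against 29.5% of all genes higher and 29.7% lower. Again Stat6 and Socs1 did not pass. After OGD/R, 4 members were lower in shAnxa2 cells (Jak1, Jak2, Stat5b and Cish) and 2 were higher (Stat6 and Socs3), with a median of 0.03. Of all genes 34.2% were lower and 33.8% higher after OGD/R. The requirement of a log2 difference of at least 1 left Cish in both, against 5.68% of all genes without OGD/R and 10.1% after it. The comparisons within a line and those between lines share libraries and are not independent of each other.

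The test of the interaction, the OGD/R difference in shAnxa2 cells minus that in shCtrl cells, was lower than 0 for 8 members and higher for Socs1, with a median of -0.48. Of all genes 35.1% were lower and 34.9% higher. Cish (-3.34 ± 0.31 SE on the log2 scale, adjusted p = 1.12e-09), Jak2 (-1.60 ± 0.10 SE, adjusted p = 8.29e-13) and Stat5b (-1.12 ± 0.09 SE, adjusted p = 4.96e-11) exceeded 1 in size, as did Socs1 (1.39 ± 0.51 SE, adjusted p = 0.0182), 4 members against 21.5% of all genes. The Socs1 call was lost without shAnxa2-CTRL replicate 2 (adjusted p = 0.0587). Socs2, Jak1, Socs3, Stat3 and Stat5a followed with -0.66, -0.55, -0.41, -0.28 and -0.25. Stat6 did not pass (0.06 ± 0.07 SE, adjusted p = 0.48).

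Cish was the only member whose group means spanned at least 1 on the scale of log2(CPM + 0.1), with a span of 1.94. The genes of at least 1 CPM whose values followed it most closely were Myo1d, Atp6v0d2 and Col15a1, with Pearson correlations of 0.981, 0.98 and 0.978 over the 12 libraries among 10740 genes compared. The 12 libraries fall into 4 groups, so these values describe a shared order of the groups. Jak2, with a span of 0.96, fell just short of that limit.

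Of 8 other JAK, STAT and SOCS genes, 7 were tested, and Stat4 had no count in any library. Tyk2, the kinase of type I interferon, IL-10 and IL-12 receptors, had larger fitted differences with OGD/R than any member but Cish. Its counts were 1662, 1831 and 1858 in shCtrl-CTRL, 4833, 4438 and 3237 in shCtrl-OGDR, 3881, 3717 and 4483 in shAnxa2-CTRL and 1668, 2219 and 1834 in shAnxa2-OGDR. On the log2 scale it was higher by 1.36 ± 0.05 SE with OGD/R in shCtrl cells (adjusted p = 1.9e-16), and in shAnxa2 cells the difference was -1.06 ± 0.05 SE (adjusted p = 8.74e-14). Its interaction was -2.42 ± 0.07 SE (adjusted p = 1.4e-18). Jak3, the kinase paired with the common γ chain, and Stat2, a factor of interferon signalling, had interactions of -1.07 (adjusted p = 6.62e-08) and -0.62 (adjusted p = 2.16e-07). Socs5 had one of 0.27 (adjusted p = 0.017). Socs4, Socs6 and Socs7 did not pass the interaction test. Negative interactions were thus called for all 4 JAK genes (Jak1, Jak2, Jak3 and Tyk2) and for Stat2, Stat3, Stat5a and Stat5b, but not for Stat6. Of all genes, 35.1% had a negative interaction.

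**Figure D3:**
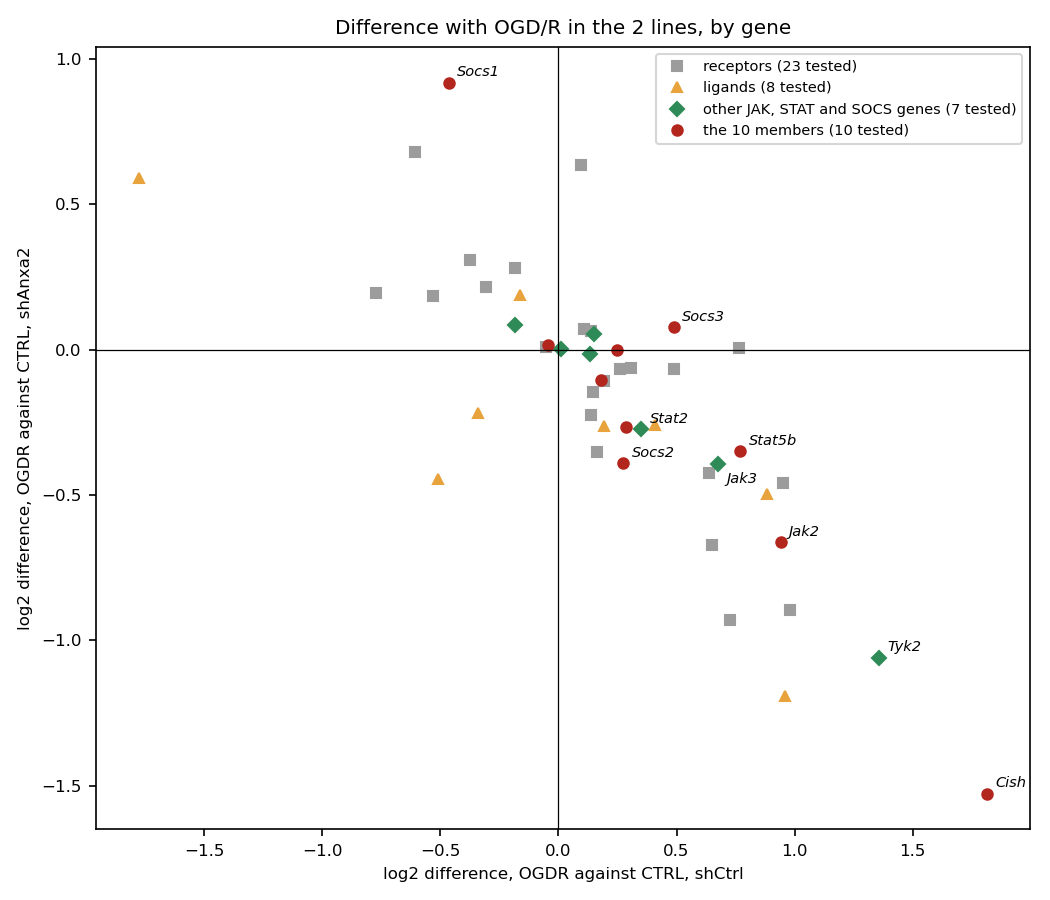
Each point is 1 gene, with its fitted log2 difference with OGD/R in shCtrl cells on the x axis and in shAnxa2 cells on the y axis, by gene list. Tyk2, Jak2 and Cish lie at lower right, higher with OGD/R in shCtrl and lower in shAnxa2 cells, and Socs1 lies at upper left with differences of -0.47 and 0.92.

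Cytokine receptor subunits were taken as a list of 38 genes, of which 23 were tested. With OGD/R in shCtrl cells 13 were higher and 4 lower, with a median log2 difference of 0.15, against 32.4% and 31.0% of all genes. In shAnxa2 cells 5 were higher and 7 lower, with a median of -0.06, against 28.2% and 26.8% of all genes, shares near those of the list. The interaction was negative for 13, positive for 5 and not called for 5, against 35.1% negative and 34.9% positive among all genes. The largest interactions among receptors of at least 1 CPM were those of Il10ra, the ligand-binding chain of the IL-10 receptor (-1.88), of Il7r, the IL-7 receptor (-1.66), of Il12rb1, shared by the IL-12 and IL-23 receptors (-1.41), and of Ifnlr1, the interferon λ receptor (-1.33). Il10ra had group means of 27.08 CPM in shCtrl-CTRL, 53.37 in shCtrl-OGDR, 42.75 in shAnxa2-CTRL and 22.99 in shAnxa2-OGDR. The 5 receptors with a positive interaction were Il6ra, Il6st, Il4ra, Csf2rb2 and Il12rb2, which are named because they are few and were singled out after their values were seen. Csf2rb2 has a near-identical copy, Csf2rb, and its reads are uncertain. Il6ra and Il6st encode the 2 chains of the IL-6 receptor. Il6ra fell with OGD/R by 0.61 on the log2 scale in shCtrl cells (adjusted p = 5.79e-09) and was higher by 0.68 in shAnxa2 cells (adjusted p = 3.13e-09). Il6st fell by 0.37 (adjusted p = 8.15e-06) and was higher by 0.31 (adjusted p = 0.000145) in the same comparisons. In shCtrl cells the IL-6 receptor chains moved opposite to Jak1 and Jak2, whereas Il10ra moved with them. In shAnxa2 cells the sign of each of these 5 genes was reversed, as for 98.6% of all genes called in both lines. The shAnxa2 line is therefore no separate observation of this relation. Il10rb, the other chain of the IL-10 receptor, moved with Jak1 and Jak2 only in shCtrl cells (0.49, adjusted p = 2.45e-07). In shAnxa2 cells its difference was -0.07 (adjusted p = 0.397).

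Of 30 ligands of these receptors, 8 passed the filter, and 7 had no count in any library. The interaction was negative for Il15 (-2.15 ± 0.18 SE, adjusted p = 2.1e-10) and Ebi3, a subunit of IL-27 and IL-35 (-1.38 ± 0.12 SE, adjusted p = 4.09e-10), and positive for Osm, oncostatin M (0.35 ± 0.13 SE, adjusted p = 0.0209). Il15 had group means of 5.033 CPM in shCtrl-CTRL, 9.804 in shCtrl-OGDR, 8.731 in shAnxa2-CTRL and 3.811 in shAnxa2-OGDR. The other 5 ligands tested did not pass the interaction test. The cells thus held RNA of many receptor subunits and little of most ligands, with the ligand list summing to at most 54.56 CPM in a library against at least 1036 CPM for the receptors.

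Other inhibitors of the pathway, phosphatases, PIAS proteins and adaptors, formed a list of 12 genes, all tested. With OGD/R in shCtrl cells 6 were higher and 2 lower, against 32.4% and 31.0% of all genes. In shAnxa2 cells 3 were higher and 3 lower, against 28.2% and 26.8% of all genes, shares near those of the list. The interaction was negative for 5 and positive for 3, with a median of -0.06, against 35.1% and 34.9% of all genes. Dusp22 (-0.63), the tyrosine phosphatase gene Ptpn6 (SHP-1; -0.54) and Pias3, an inhibitor of STAT3 (-0.53), had the largest negative interactions, and Sh2b3 (LNK), an adaptor that restrains JAK2, had a positive one of 0.56. Ptpn6 was the most abundant of these, at 504.4 ± 12.62 CPM (SD, n = 3) in shCtrl-CTRL. The list of 5 subunits and partners of the ubiquitin ligase that SOCS proteins assemble held 3 genes with a positive interaction, Rnf7 (0.39), Eloc (0.39) and Cul5 (0.31), and none with a negative one, against 34.9% and 35.1% of all genes. In shCtrl cells these 3 were lower with OGD/R, by 0.39, 0.39 and 0.25 on the log2 scale, and in shAnxa2 cells none of the 5 passed.

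Genes known as targets of STAT3, STAT5 and STAT6 moved in both directions, and the lists share genes with each other and with the members. Their counts are to be read against those of all genes, of which OGD/R went with 32.4% higher and 31.0% lower in the shCtrl line and 28.2% higher and 26.8% lower in the shAnxa2 line, and 34.9% had a positive and 35.1% a negative interaction. Among the 18 STAT3 targets tested, 12 were higher and 5 lower with OGD/R in shCtrl cells (median 0.54), 3 were higher and 9 lower in shAnxa2 cells (median -0.21), and 12 had a negative and 5 a positive interaction (median -0.63). The acute-phase and secreted-protein genes Lcn2 (-4.88), Hp (-4.03) and Saa3 (-3.61) had the largest interactions, followed by the proto-oncogene Myc (-3.41). Saa3, an acute-phase protein, stood at 5.456 ± 1.25 CPM (SD, n = 3) in shCtrl-CTRL, 21.79 ± 2.067 in shCtrl-OGDR, 73.95 ± 13.19 in shAnxa2-CTRL and 24.33 ± 4.213 in shAnxa2-OGDR. The 5 STAT3 targets with a positive interaction, named after their values were seen, were Junb, Bcl2l1, Il4ra, Il1rn and Ccnd1.

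Among the 18 STAT5 targets tested, which include Cish, Socs1, Socs2 and Socs3, 10 had a negative and 8 a positive interaction, with a median of -0.41. In shCtrl cells 10 were higher and 6 lower with OGD/R, and in shAnxa2 cells 6 were higher and 8 lower. The survival kinase gene Pim2 (-3.13 ± 0.11 SE, adjusted p = 1.01e-17) moved as Cish did, with group means of 9.087, 34.31, 29.25 and 12.61 CPM in the order shCtrl-CTRL, shCtrl-OGDR, shAnxa2-CTRL and shAnxa2-OGDR. The cyclin gene Ccnd2 (1.99 ± 0.08 SE, adjusted p = 1.13e-16) had a positive interaction, with 83.63, 32.03, 181.7 and 275.5 CPM in the same order. In untreated shAnxa2 against shCtrl cells both genes were higher. Of the 15 STAT6 targets tested, 4 had a negative and 7 a positive interaction, with a median of 0.12. Apart from Myc and Cish, the named ones were Clec10a (-1.45), a lectin gene of alternatively activated macrophages, and Tgm2 (1.09), a transglutaminase gene.

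**Figure D4:**
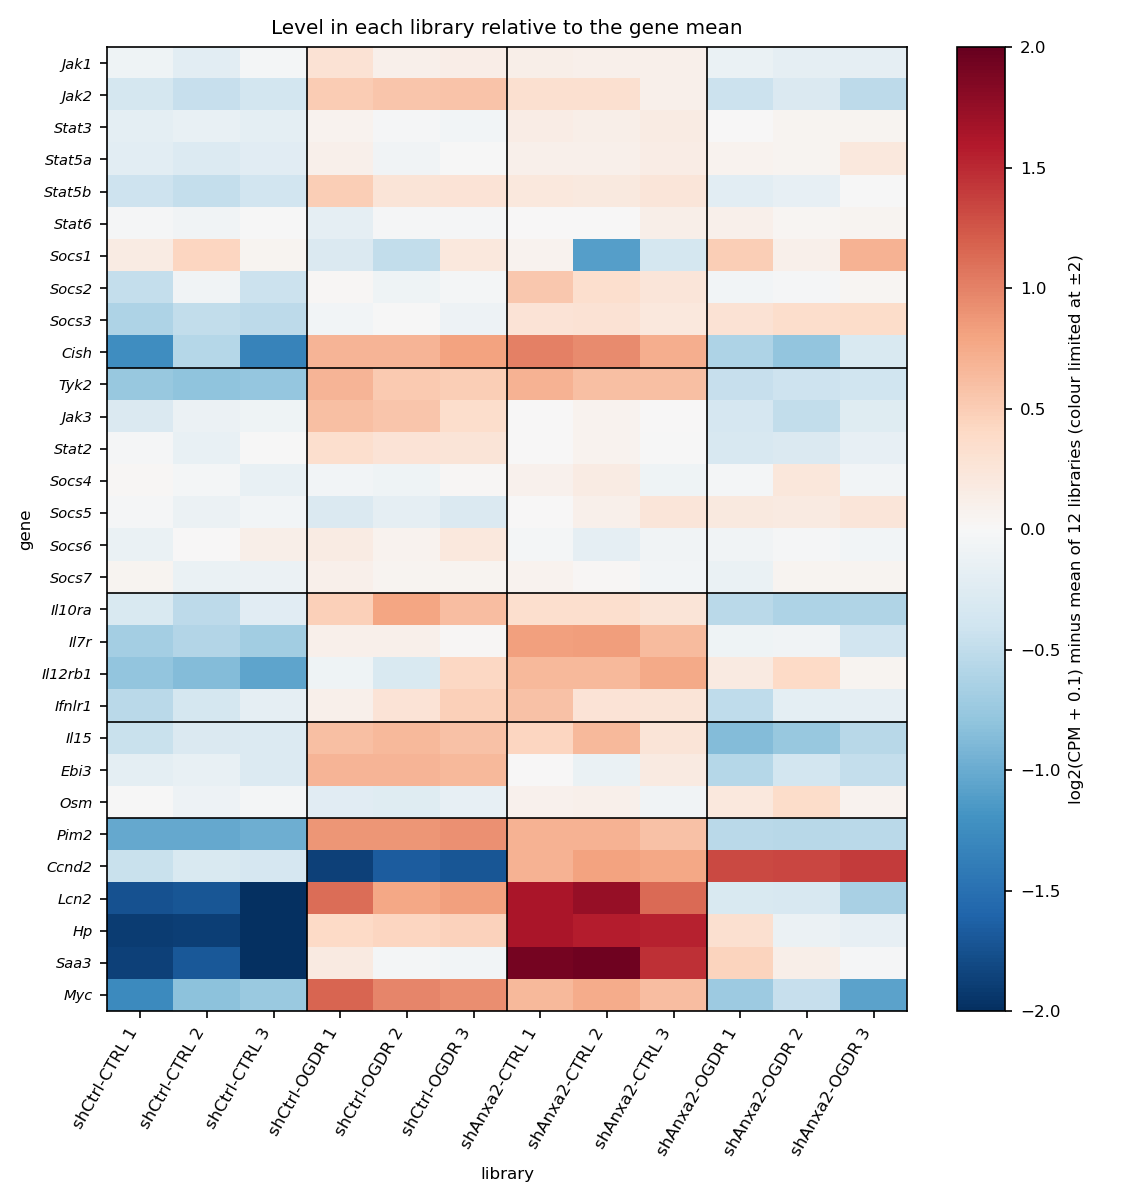
Level of each gene in each of the 12 libraries as log2(CPM + 0.1) minus the mean over the libraries, with red above and blue below the mean and colour limited at 2 in either direction. From the top, the blocks hold the members, other family genes, receptors, ligands and targets. Cish, Tyk2, Il10ra, Il15, Pim2 and Myc are red in shCtrl-OGDR and shAnxa2-CTRL and blue in the other groups, and Ccnd2 is darkest blue in shCtrl-OGDR.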

How the data were processed

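RNA-seq of BV2 cells was analysed from the deposited table, 3 libraries in each of 4 groups. The authors deposited raw counts of reads per gene, beside 12 columns of normalised values and further columns not used here. The submitters' processing notes name HISAT2 2.0.4 and mm39, and a counting tool for these cells is not given in the sources used here. Total counts per library had a median of 24531756.

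Counts were tested with edgeR 4.0.16 in R 4.3.3 (TMM, quasi-likelihood test, 1 model over 12 libraries with a coefficient per group), on 11626 genes with 0.5 CPM or more in 3 or more libraries. P-values were adjusted over all of them by Benjamini-Hochberg, and a gene was called at an adjusted p below 0.05. The SE is the size of the log2 difference divided by the square root of F. The common biological coefficient of variation was 5.35%. Within groups, the chi-square per gene between any 2 libraries was 3.89 to 12.66, above counting error, and none was counted as a repeat. The highest values were those of shAnxa2-OGDR, at 6.95 to 12.66. In that group replicate 1 held 66525 counts of Lars2, against 1500 and 1414 in replicates 2 and 3. The study's methods call the 3 of a group biological replicates, each made up of 3 technical replicates. They do not say whether these were separate cultures. The steps were tested on simulated counts, with the same spread for every gene and a known set of genes changed in shCtrl-OGDR only. That setting is simpler than these data, so it checks the steps and not the calls made here. Alternatives were median-of-ratios size factors, DESeq2 1.42.0, voom of limma 3.58.1, no filter or 1 CPM, only the 2 groups compared, the replicate number as a block, fold limits and leaving out each library.

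The members, lists and tests were chosen with earlier results of these data known. All 10 members are named, Anxa2 once, the genes of the rest of the family (1 gene is not reported here), and per list up to 4 called genes of at least 1 CPM with the largest interaction. Genes named beyond that rule were chosen after their values were seen. Lists are described by counts and medians, without a set test.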

Additional observations from a re-analysis of the deposited data

Results flagged for a closer look

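The OGD/R difference in shAnxa2 cells minus that in shCtrl cells passed the test of the interaction for 9 of the 10 members, edgeR quasi-likelihood test, adjusted over all genes, of which 34.9% had a positive and 35.1% a negative interaction. On the log2 scale it was -3.342 for Cish, -1.604 for Jak2, -1.119 for Stat5b, -0.6649 for Socs2, -0.5502 for Jak1, -0.4092 for Socs3, -0.2846 for Stat3, -0.2507 for Stat5a and 1.385 for Socs1. By call these differ: for Jak1, Jak2, Stat5b, Socs2 and Cish the differences with OGD/R were called in both lines with opposite signs, for Stat3, Stat5a and Socs3 a higher level was called in shCtrl cells and no difference in shAnxa2 cells, and for Socs1 a higher level was called in shAnxa2 cells and none in shCtrl cells. Stat3 and Socs2 lay close to the threshold. The Stat3 difference in shAnxa2 cells, -0.1056 with an adjusted p of 0.0511, passed with DESeq2 (adjusted p = 0.0307). The Socs2 call in shCtrl cells (adjusted p = 0.0477) was lost with DESeq2 (adjusted p = 0.0606). Opposite signs were also found for 98.6% of all genes called in both lines.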

How the results depend on the processing

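The number of members called stayed within 1.5 times its main value for every comparison under the other tools, scalings and filters, with only the 2 groups compared, and without any 1 library. Fold limits lowered it by construction. A log2 difference of at least 1 left 1 member with OGD/R in shCtrl, 1 in shAnxa2, 1 between untreated lines, 1 between lines after OGD/R and 4 for the interaction, and a fold of at least 1.5 left 3, 3, 5, 2 and 5 in that order. With the replicate block, 7 members were called for OGD/R in shCtrl cells, Socs2 being lost (adjusted p = 0.056), and no other call changed. The replicate numbers share only a number: deviations of same-numbered libraries correlated at -0.051 to 0.135, above 0.1 in 1 of 18 pairs, and 6 of 12 libraries correlated best with their own number.

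Differences near 0 that did not pass the test changed sign. That of Stat6 with OGD/R in shAnxa2 cells was -0.01512 without the filter, and without 1 library each it ranged from -0.005317 to 0.0531. Without 1 library each, that of Stat6 with OGD/R in shCtrl cells ranged from -0.07145 to 0.006848, that of Stat5a in shAnxa2 cells from -0.04824 to 0.03053, and that of Socs2 between lines after OGD/R from -0.0004617 to 0.06023. The cause was not tested. Most of the member calls that were lost were those of Socs1 and Socs2, which had 6 to 28 and 156 to 272 counts per library.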
